A study of Homo sapiens with 4 samples.

Results

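The IGF2BP1 gene held 10 of the 1181 regions listed for an iCLIP study of the RNA helicase MOV10, all of them close to the end of the gene. Its members are the listed regions, and the reads inside them, that overlap chromosome 17 from 47074774 to 47133507 (plus strand, hg19). The gene was chosen by its number of listed regions in these same files, so how many there are, where they lie and how far apart they are is a description with no test. The regions held 124 of the 10053 deposited reads. No listed region lay on the minus strand within the gene span, and the nearest ones on the plus strand lay 2027050 nt before it and 1494890 nt after it.

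The study used HEK293F, a human embryonic kidney cell line, with no treatment or genetic change named in the labels. It comprised 4 libraries, 1 with an antibody to MOV10 and 1 with an irrelevant antibody (rabbit, against zebra finch FMRP) in each of experiments 1 and 2. iCLIP crosslinks protein to RNA with UV light, recovers the complex with an antibody and copies the RNA into cDNA, and copying tends to stop beside the crosslinked base. The 5' end of a read is then expected next to that base. One read list was deposited per experiment, with 4021 and 6032 reads, and both pull-downs of that experiment are tied to it in the labels. No column tells them apart, so MOV10 and control cannot be compared, and no value below is an enrichment over control. The labels call the 2 experiments replicates without saying whether they are separate cultures, so a difference between them is one between replicates. Only reads within listed regions were deposited, so library depth is unknown. The region list is titled as present in both experiments, so having reads in each was a condition of listing. That every IGF2BP1 region has reads of both experiments is therefore no finding about this gene.

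IGF2BP1 (also IMP1 or ZBP1) is an RNA-binding protein with RRM and KH domains that binds many messages and is known for protecting some of them from decay. It is abundant in fetal tissue and in many tumours, and its own message has a long 3' UTR that is a textbook target of let-7 miRNAs. MOV10 is an RNA helicase found with Argonaute proteins and with factors of RNA decay. These files measure crosslinked RNA fragments and not the amount of IGF2BP1 message or protein.

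The 10 regions, numbered here from 5' to 3', occupied 616 nt of a stretch of 6214 nt and began in the last 10.7% of the gene span. Region 1 (47127232 to 47127258) began 6276 nt before the end of the span, and region 10 (47133418 to 47133445) ended 62 nt before it. The first 52458 nt of the span held no listed region. In GENCODE 29, an annotation of GRCh38, the gene has 58239 nt against 58734 nt for the hg19 span. Its main transcript there has 15 exons, the stop codon ends at base 52033 of the gene, and 6206 nt follow it in a last exon of 6299 nt. Those are lengths in another build, and its gene ends are not the same as those of the hg19 span. If both models start at the same base, all 10 regions lie past the stop codon, in the 3' UTR. If instead they end at the same base, region 1 lies before the stop codon and the other 9 past it, and neither could be tested on hg19. No sequence is shown, because no hg19 sequence was used here.

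The regions were not evenly spaced. The gaps between neighbours ran from 104 to 1435 nt, with a median of 579 nt over 9 gaps. The widest gap separated region 1 from region 2 (47128694 to 47128784). Region 3 (47129747 to 47129789) followed after 962 nt and region 4 (47130271 to 47130321) after 481 nt. The narrowest gap, 104 nt by the listed limits, lay between region 4 and region 5 (47130426 to 47130529). Reads of region 4 reached into this gap, to 47130388. Region 6 (47131109 to 47131202) and region 7 (47131449 to 47131497) lay 246 nt apart. Region 8 (47131979 to 47132071) and region 9 (47132738 to 47132773) came after them, and a gap of 644 nt then led to region 10. Widths ran from 27 to 104 nt with a median of 50 nt, against a median of 38 nt over the 1171 regions elsewhere. Regions 5, 6 and 8 were the widest of the gene together with region 2, which had 91 nt.

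**Figure D1:**
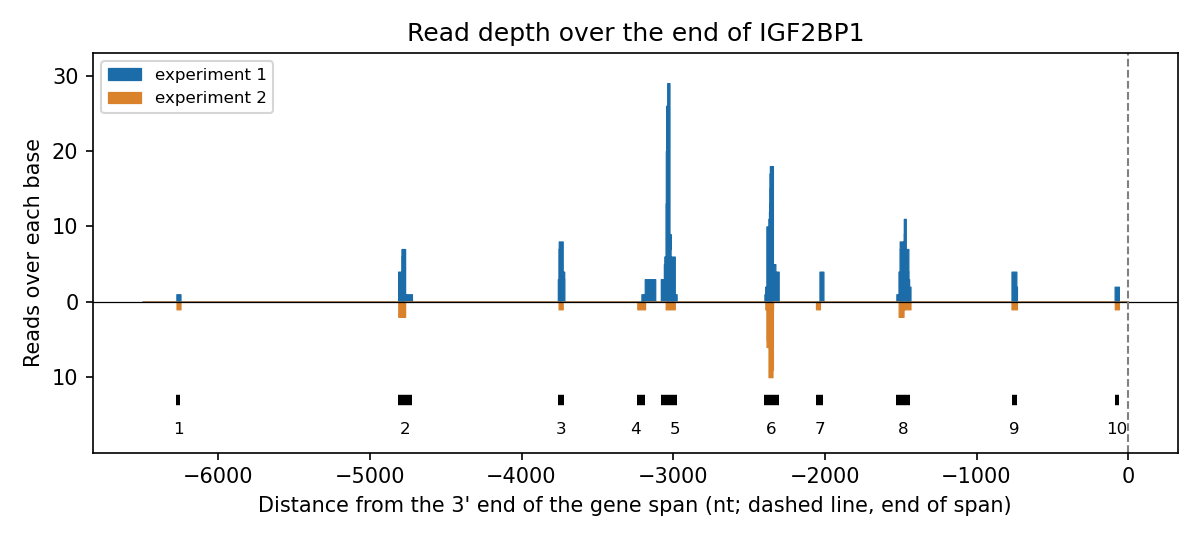
Reads over each base of the end of IGF2BP1, with experiment 1 drawn upward and experiment 2 downward; the x axis is the distance in nt from the 3' end of the gene span, and black bars with numbers mark the 10 listed regions. Depth reached 29 reads in region 5 and 18 in region 6 in experiment 1, and 10 reads in region 6 in experiment 2.

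Regions 5, 6 and 8, which began 51.4%, 62.4% and 76.4% of the way along the stretch, held most of the reads. In experiment 1 they had 34, 22 and 15 reads, together 71 of 101 (70.3%). In experiment 2 they had 2, 10 and 3 reads, together 15 of 23 (65.2%). The richest region was thus region 5 in experiment 1 and region 6 in experiment 2: region 5 gave 33.7% of the gene's reads in experiment 1 and 8.70% in experiment 2, and region 6 gave 21.8% and 43.5%. Single bases reached a depth of 29 reads in region 5 in experiment 1 (47130468 to 47130482), where experiment 2 never exceeded 1 read. In region 6 the deepest bases had 18 reads in experiment 1 (47131145 to 47131164) and 10 in experiment 2 (47131136 to 47131161), and these stretches overlap.

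The other 7 regions together held 30 reads in experiment 1 and 8 in experiment 2. Region 3 had 8 reads in experiment 1 and 1 in experiment 2, and region 2 had 7 and 2. Regions 4, 7 and 9 each had 4 and 1. Region 10 had 2 and 1, and region 1 had 1 and 1. In experiment 1, 8 of the gene's 10 regions had at least 4 reads, against 27.0% of regions elsewhere, where the median was 2. Experiment 1 had more reads in 9 of the 10 regions, against 52.3% elsewhere. In experiment 2, 6 of the 10 rested on 1 read, against 52.3% elsewhere. Regions 5, 6 and 8 ranked 5, 11 and 18 by reads among all 1181 regions in experiment 1, and 301, 33 and 168 in experiment 2, ties included. Regions 3 and 2 ranked 45 and 59 by reads in experiment 1.

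**Figure D2:**
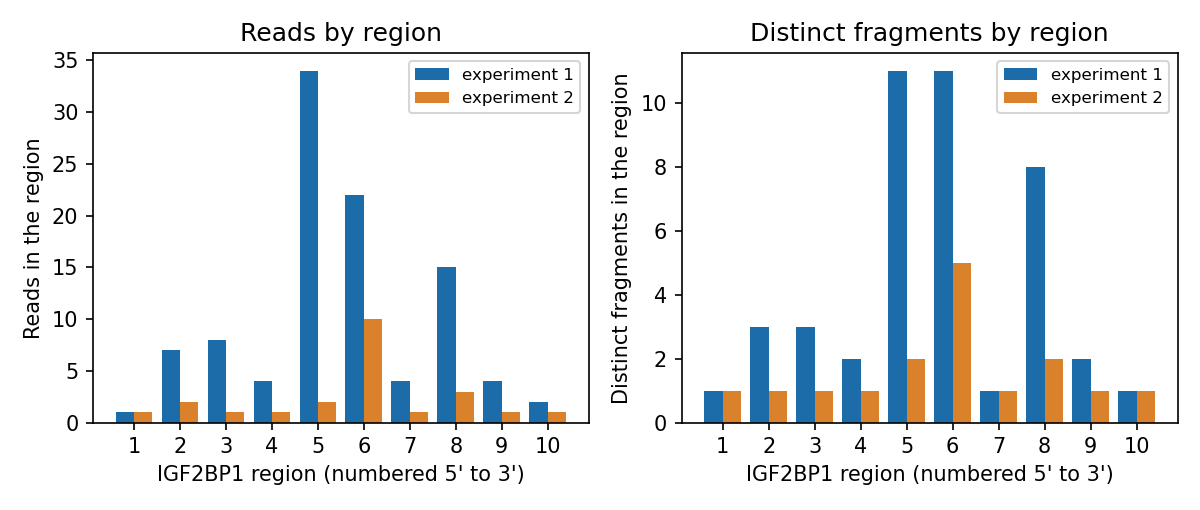
Reads (left) and distinct fragments (right) in each of the 10 IGF2BP1 regions, as bars for experiment 1 and experiment 2; there is 1 read list per experiment, so the bars have no error. Regions 5 and 6 have 34 and 22 reads in experiment 1 but 11 distinct fragments each, and region 6 has the highest bar of experiment 2 in both panels.

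Counted as distinct fragments, with reads of the same strand and the same ends counted once, the gene had 43 fragments in experiment 1 and 16 in experiment 2. Regions 5 and 6 each had 11 in experiment 1, and 2 and 5 in experiment 2. Region 8 had 8 and 2. Regions 2 and 3 had 3 and 1 each, regions 4 and 9 had 2 and 1 each, and regions 1, 7 and 10 had a single fragment in each experiment. In experiment 1, 24 of the 43 fragments (55.8%) recurred in at least 2 of the 3 groups told apart by the start of the read names, against 53.2% of fragments elsewhere. In experiment 2 this held for 3 of 16 (18.8%) against 39.3% elsewhere. A fragment of 1 read cannot recur, and in experiment 2 this applied to 12 of the 16, against 921 of 1640 elsewhere. When fragments with both ends within 3 nt were joined, 32 remained in experiment 1 and 14 in experiment 2, with 6, 7 and 6 in regions 5, 6 and 8 of experiment 1.

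Read names also carry a number that was read as the copies of a sequence, an inference from the values. For IGF2BP1 it summed to 161 over the 101 reads of experiment 1, with a highest value of 6, and to 24 over the 23 reads of experiment 2, where it never exceeded 2. In experiment 1, 64.4% of the gene's reads had a copy number of 1, close to the 65.1% elsewhere, and in experiment 2 it was 22 of 23 (95.7%) against 74.7%. Elsewhere the highest values were 3408 and 3946, with 4.17 and 14.7 copies per read. Reads per distinct fragment were 2.35 in experiment 1, near the 2.22 elsewhere, and 1.44 in experiment 2, below the 3.66 elsewhere. These ratios were not tested. The 3.66 depends on 20 regions elsewhere with at least 50 reads. Without them the list had 2552 reads and 1369 distinct fragments in experiment 2, against 6032 and 1656 with them.

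The gene took a smaller share of the deposited reads in experiment 2. It had 2.51% of the reads of experiment 1 (95% exact Clopper-Pearson interval 2.05 to 3.04) and 0.381% of those of experiment 2 (interval 0.242 to 0.572). The log2 ratio of these shares was -2.72 (exact conditional interval -3.44 to -2.06). All intervals cover counting error alone. By distinct fragments the shares were 2.38% (interval 1.73 to 3.19) and 0.966% (interval 0.553 to 1.56), a log2 ratio of -1.30 (interval -2.23 to -0.44). A few regions elsewhere with at least 50 reads, 20 in all, enlarge the total of experiment 2. Without them the shares of reads were 2.82% and 0.901%, a log2 ratio of -1.64. Within the 3 groups of read names, which start with 06, with 07 or with neither, the shares were 2.60% and 0.205%, 2.46% and 0.486%, and 2.48% and 0.440%. The direction was the same in each. These groups share fragments (24 of 43 in experiment 1 and 3 of 16 in experiment 2 recurred in at least 2 groups), so they are not independent replicates.

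The share of reads was compared between experiments in each of the 1181 regions by a two-sided Fisher's exact test, and p-values were adjusted over all of them by the Benjamini-Hochberg method. All 10 IGF2BP1 regions had a lower share in experiment 2, as did 972 of the 1171 regions elsewhere (83.0%), and 3 of the 10 passed an adjusted p of 0.05. The total of experiment 2 is larger (6032 against 4021 reads), so a region with equal reads in both, such as region 1, always has the lower share there. Over the whole list, 4.57% of regions passed in either direction and 2.46% with the lower share in experiment 2. Region 5 had the largest difference of the gene, with 0.846% of reads in experiment 1 and 0.0332% in experiment 2, a log2 ratio of -4.67 (interval -7.78 to -2.71, adjusted p = 3.61e-10 by Fisher's exact test). Region 8 had a log2 ratio of -2.91 (interval -5.34 to -1.09, adjusted p = 0.0083 by the same exact test). Region 6 had -1.72 (interval -2.96 to -0.58, adjusted p = 0.0372 by the same exact test). Region 3, at -3.59, did not pass (exact test, adjusted p = 0.0771).

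The direction and the calls depended on what was counted. By distinct fragments, regions 1, 7 and 10 had a higher share in experiment 2, which left 7 of 10 with a lower one, against 249 of 1171 elsewhere (21.3%). These 3 regions had 1 fragment in each experiment, so the totals of 1806 and 1656 fragments set their direction. Any region with equal fragments has the higher share in experiment 2 by these totals. Elsewhere the median was 1 fragment in each experiment, so the 21.3% depends on such regions. With totals that leave out the 20 read-rich regions, region 1 had a higher share in experiment 2, and 9 of 10 a lower one, against 49.9% elsewhere. Region 1 had 1 read in each experiment, so its direction was again set by the totals. Counted by fragments, 0 of the 10 regions passed the same exact test, which called 0.423% of all regions, and at an unadjusted p under 0.05 there was 1, region 5 (11 and 2 fragments, exact test, unadjusted p = 0.0238, adjusted p = 1). With those reduced totals, region 5 passed (exact test, adjusted p = 0.000186) and regions 6 and 8 did not (exact test, adjusted p = 1 and 0.9). When reads scored under 30 were dropped, region 6 had an adjusted p of 0.0503 by the exact test. Reads that are copies of 1 molecule are not independent, so the p-values by reads can be too small.

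In region 5, most reads of experiment 1 shared 1 of its 5 different 3' ends, while their 5' ends varied. There, 24 of the 34 reads of experiment 1 ended at 47130482, in 6 distinct fragments whose 5' ends lay at 47130426, 47130446, 47130449, 47130457, 47130459 and 47130461. The fragment starting at 47130457 had 7 reads and the one at 47130459 had 6. Downstream, 3 reads started at 47130486 and 2 at 47130489, all ending at 47130517. Experiment 2 had 1 read from 47130458 to 47130481 and 1 from 47130486 to 47130517, the latter with the exact ends of a fragment of experiment 1.

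Region 6 had the same main 3' end in both experiments. In experiment 1, 16 of 22 reads ended at 47131164, in 7 fragments, and in experiment 2, 8 of 10 reads ended there, in 3 fragments. The most frequent 5' end of experiment 1 was 47131122, with 8 reads, all of 1 fragment. Experiment 2 had 4 reads there, also of 1 fragment, tied with 4 reads in 2 fragments starting at 47131136. Experiment 1 had 1 read starting at 47131135. For reads starting at 47131122 the expected crosslinked base is 47131121, and for those starting at 47131136 it is 47131135. A second group of 4 reads of experiment 1, starting at 47131169 or 47131170 and ending at 47131202, had no read in experiment 2.

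**Figure D3:**
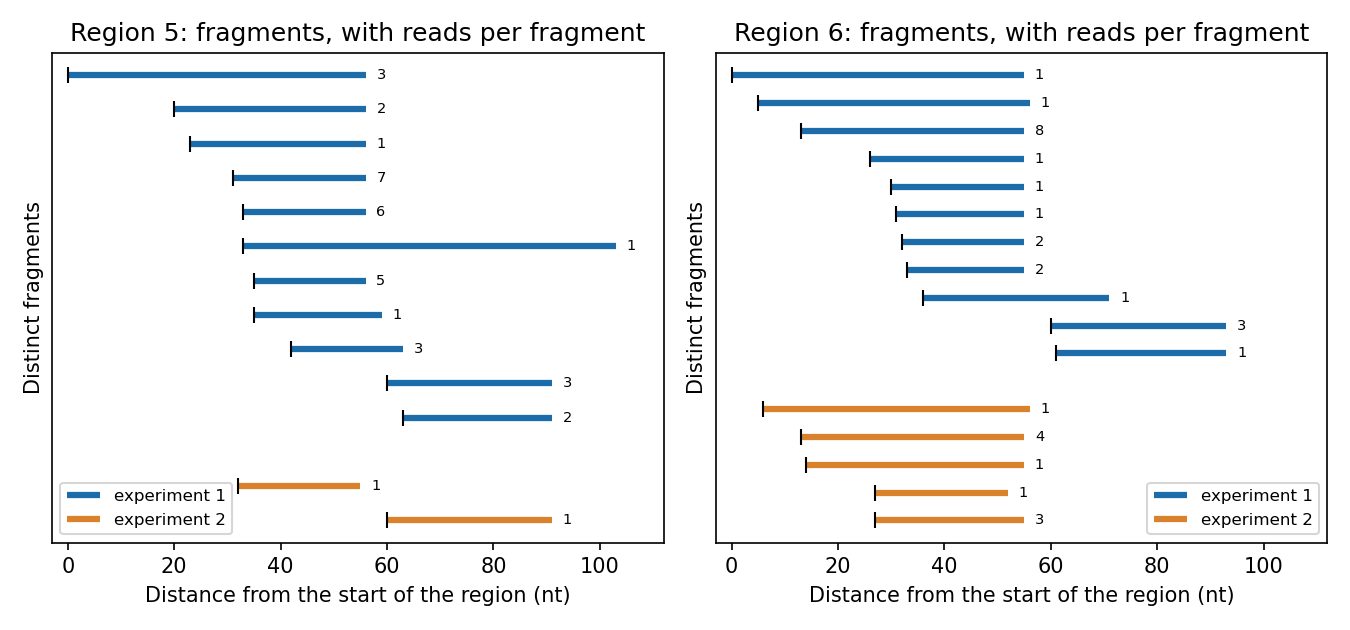
Distinct fragments of regions 5 and 6, each a line from its 5' end (black tick) to its 3' end, with its number of reads beside it; the x axis is the distance in nt from the start of the region, and colour gives the experiment. In region 5, 6 fragments of experiment 1 end at the same base, and in region 6, 7 fragments of experiment 1 and 3 of experiment 2 do.

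Region 8 was built otherwise. Its 8 fragments of experiment 1 had 8 different 5' ends and 7 different 3' ends. They formed overlapping steps, from 47131979 to 47132020, then 47131993 to 47132025 (3 reads), 47132000 to 47132040 (3 reads) and 47132027 to 47132057 (3 reads), up to 47132028 to 47132071 (2 reads). Experiment 2 had 2 reads from 47131994 to 47132025 and 1 from 47132029 to 47132071. Over the gene, experiment 1 had 40 distinct 5' ends and 28 distinct 3' ends, and experiment 2 had 15 and 14. Each of the 3 regions with at least 4 fragments in experiment 1 had fewer 3' than 5' ends, as did 26 of the 57 such regions elsewhere. In those 57 there were 253 5' ends and 273 3' ends in 381 fragments. The 2 sets differ in fragments per region (medians of 11 and 5), and the difference in ends was not tested.

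The experiments shared the fewest bases in regions 7 and 4. In region 7, the 4 reads of experiment 1 ran from 47131472 to 47131497 and the read of experiment 2 from 47131449 to 47131474, so that 3 nt were covered by both. In region 4, the read of experiment 2 ran from 47130271 to 47130321, the listed limits. Of the 4 reads of experiment 1, 3 ran from 47130320 to 47130388, sharing 2 nt with the region and reaching past its end. The fourth, from 47130298 to 47130318, had a mapping quality of 3 and lay wholly inside the read of experiment 2, so that 23 nt were covered in both. Region 4 is 1 of 5 in the whole list whose limits are not those of the merged reads. In the other 8 regions, 26 to 75 nt were covered in both experiments.

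Those other 8 regions each held fragments that paired between the experiments. A pair here means the same 3' end, with the 5' end of experiment 2 at the same base or 1 nt downstream. That rule was set with earlier results of these data known, and no upstream or larger shift was counted, so the pairs are a description. There were 12 such pairs, 9 with the 5' end 1 nt downstream in experiment 2 and 3 at the same base. Experiment 1 had 11 of its 43 fragments in a pair, and experiment 2 had 12 of its 16. The pairs with identical ends were 47130486 to 47130517 in region 5, 47131122 to 47131164 in region 6 and 47132738 to 47132773 in region 9. Regions 1, 2, 3 and 10 each had 1 pair with a shift of 1 nt, with the 5' end at 47127232, 47128694, 47129751 and 47133418 in experiment 1. Elsewhere, 1011 of 1171 regions (86.3%) held such a pair, against 8 of 10 here. Whether paired fragments are independent between experiments was not tested.

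Mapping quality, as the deposited score from 0 to 70 was read, was high for most reads. Its median was 70 in both experiments, and 59 of 101 reads and 15 of 23 had the highest value. In experiment 1, 11 reads (10.9%) lay under 30, against 14.9% elsewhere, and in experiment 2 it was 1 read (4.35%) against 18.95%. Of the 11, 10 lay in region 5 and 1 in region 4, and the read of experiment 2 lay in region 5. All 12 were shorter than 25 nt. The 19 reads of that length in experiment 1 had a median of 29, the 25 reads of 25 to 29 nt a median of 61, and the 25 of 30 to 39 nt and 32 of 40 nt or more medians of 70. Outside the gene, reads under 25 nt also had the lowest medians, 38 and 26 in experiments 1 and 2.

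**Figure D4:**
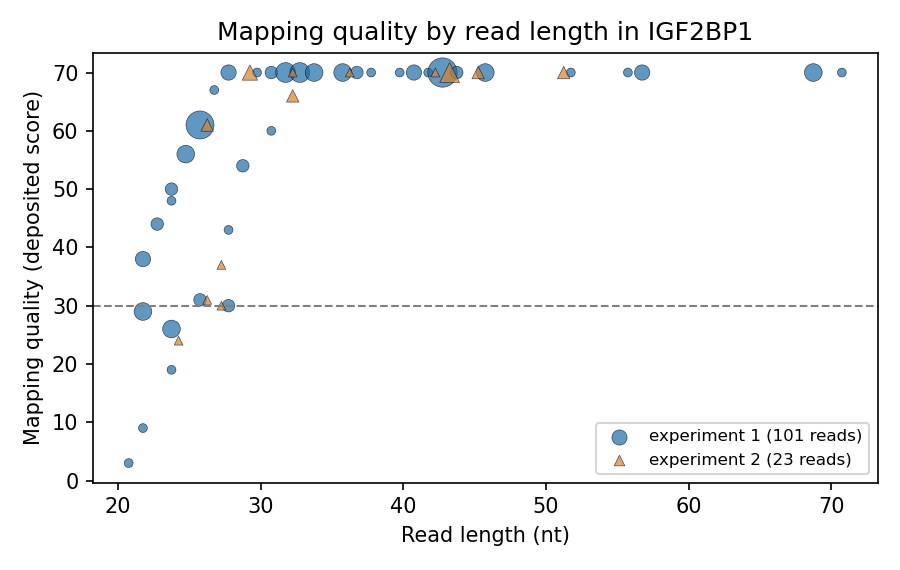
Mapping quality against read length in nt for the reads of IGF2BP1, with circles for experiment 1 (101 reads) and triangles for experiment 2 (23 reads), set slightly apart along the x axis; the area of a mark grows with the number of reads, and the dashed line marks 30. All 12 reads under the line are shorter than 25 nt.

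By region, median mapping quality in experiment 1 was 70 in regions 2, 3, 4, 6, 8 and 9, 67 in region 1, 58.5 in region 5, 46 in region 7 and 30 in region 10. In region 5 it ranged from 9 to 70. In experiment 2 the medians were 70 in regions 2, 4, 6, 8 and 9, 61 in regions 1 and 7, 45 in region 5, 37 in region 3 and 30 in region 10. Each of the 3 reads of region 10, the one nearest to the end of the gene, had a score of exactly 30, at lengths of 27 and 28 nt. Each of the 10 regions kept a read of 30 or more in each experiment. Reads with the same ends did not always have the same score: among 25 fragments of experiment 1 with at least 2 reads, 5 had several values, such as 31 and 61 for the fragment of region 7.

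When regions of a strand were joined over gaps of up to 1000 nt, regions 2 to 10 formed 1 locus of 4752 nt with 9 regions, or 1.89 per kb. The 3 other loci most like it by number of regions had 7, 4 and 4. The first, on chromosome X (minus strand, 73063980 to 73067636), had a density of 1.91 regions per kb, and held 22 reads in experiment 1 against 360 in experiment 2. One of 479 nt on chromosome 16 (plus strand, 29821786 to 29822264) had 24 and 92 reads, and one of 1405 nt on chromosome 1 (minus strand, 205684333 to 205685737) had 20 and 43. In experiment 1 the richest region held 34.0% of the reads of the IGF2BP1 locus and 36.4%, 33.3% and 35% of the other 3. In experiment 2 it held 45.5% of the IGF2BP1 locus and 65.6%, 84.8% and 86.0% of the others. By distinct fragments, the IGF2BP1 locus had 42 and 15, against 13 and 20, 12 and 14, and 9 and 8. These loci were ranked on the same reads, so the differences are given without a test.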

How the data were processed

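The alignment build was hg19 and the tools were bedtools, SAMtools, Novoalign and CASAVA 1.8.2, per the submitters' processing notes. The listed regions are titled as present in both experiments. How they were called is otherwise not given in the sources used here. In all, the authors deposited 2 lists of read positions, each with a whole-number score from 0 to 70 read here as mapping quality, and 1 list of 1181 regions. Read starts were shifted to 1-based positions. Each read overlapped exactly 1 region, which took the strand of its reads. Shares were compared by Fisher's exact test over all 1181 regions. The test was checked on simulated counts of independent reads. That check held no copies of a molecule and no variation between replicates, so it does not cover either. No hg19 annotation or sequence was used, so a planned list of related genes was not analysed here. IGF2BP1, the lists and the alternatives were chosen with earlier results of these data known. All of the gene's regions are named. The loci set beside it are the first 3 others by number of regions, with ties ranked by reads. Alternatives covered mapping quality, unit counted, totals, read names, strand, gap and offset. Computation was done in Python 3.11.15 with scipy 1.17.1, pandas 2.3.3, numpy 2.4.6 and matplotlib 3.10.9 (seed 1).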

Additional observations from a re-analysis of the deposited data

How the results depend on the processing

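Over 5 results and 22 alternatives, 2 of them added after the data were seen, 12 gave the same call, a count within 1.5 times or a ratio inside the interval of the reported one, and 0 reversed a direction. The log2 ratio of IGF2BP1 shares stayed below 0 in all 11 of its alternatives. Against -2.72 by reads, it was -1.30 by distinct fragments, -0.97 with fragment ends within 3 nt joined (interval -1.99 to -0.02), -5.16 by summed copy numbers, -1.64 with totals that leave out the 20 read-rich regions, -1.09 by fragments with such totals, and -3.66 in reads named 06. Regions with a different share numbered 0 by distinct fragments and 1 with the reduced totals, against 3. With a gap of 500 nt the largest locus held 3 regions in place of 9. With the same 5' end required, 3 regions had matching ends in place of 8. The cause of these changes was not tested. Experiment 2 alone gave 12 clusters of reads and experiment 1 alone gave 11, against 10 listed regions. Every listed region holds reads of both experiments, so neither count could have lost a region, though both are among those counted as the same. No paired analysis was possible because no column says which pull-down a read came from. With 1 read in 6 regions of experiment 2, small differences cannot be seen.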
